A study of Homo sapiens with 20 samples.

Results

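The regions described here are those occupied by p53, by MLL4 or by both in wild-type (WT) HCT116 cells, an established human colorectal carcinoma line. They come from 3 ChIP-seq libraries, 2 for p53 and 1 for MLL4, out of 20 libraries in the series, which also holds MLL4-knockout (KO) HCT116 cells, 3 histone marks, MLL1 and inputs. The labels name no treatment and no agent that activates p53, and they do not say how many clones the KO cells represent or whether replicates were separate cultures. Peaks of all 3 libraries had been called singly, with a common WT input as control. A p53 region was a stretch with a peak in both WT p53 lists, and on chromosomes 1 to 22 there were 25236 of them. The WT MLL4 list gave 55887 regions. Shared regions overlapped by at least 1 bp, and there were 10024 of them counted as p53 regions, or 11190 counted as MLL4 regions. The p53-only class held 15212 regions and the MLL4-only class 44697. Together the classes made up 69829 merged regions, out of 255150 over the 12 peak lists read.

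p53 is a transcription factor that binds a response element made of paired decamers and activates genes for cell cycle arrest, apoptosis and DNA repair; HCT116 cells carry it in wild-type form. MLL4, encoded by KMT2D, is a methyltransferase that places H3K4me1 at enhancers, where the acetyltransferases CBP and p300 add H3K27ac. H3K4me3 marks active promoters, and its writers include MLL1, encoded by KMT2A. The stated aim of the series was to examine how MLL4 and p53 act together on chromatin.

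The labels were checked first. The MLL4 antibody gave 257 peaks on chromosomes 1 to 22 in KO cells, against 55887 in WT cells, and 138 of the WT regions (0.247%) overlapped a KO peak. For the cell type, 11 of 12 colon epithelial markers had H3K27ac and 10 had H3K4me3 within 1 kb, with CDX1 and VIL1 lacking H3K4me3 and LGR5 lacking H3K27ac. Of 10 markers of other cells, 7 had H3K27ac and 4 (SPI1, COL1A1, ACTA2 and VIM) had H3K4me3. The share over all genes was not computed by this measure, so these counts do not settle the cell type. By another measure, H3K4me3 met the most upstream promoter window of 61.2% of 15101 protein-coding genes. The p53 label was less clearly borne out than the MLL4 label: the strongest p53 regions lay at ribosomal RNA genes of chromosome 21, and known p53 targets did not rank above other genes, as given below. The regions are therefore called p53 regions by their antibody.

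Promoter sequences were read from RefSeq windows on GRCh38.p14, each running from 250 bases before to 50 after a transcription start. Of the p53 target genes listed further on, 76 had such a window, and 50 of these had a window that met a p53 region. Over all 15101 genes with a window, the most upstream one met both p53 and MLL4 in 13.5% and p53 without MLL4 in 26.3%. The count of 50 takes any window of a gene, so it cannot be set against these shares. The windows below are single examples from each class, printed to show what a window and its marked letters look like; they do not stand for the class averages given after them. AEN, an exonuclease gene induced by p53 in apoptosis, lay under a p53-only region (chr15:88621090-88621389, plus strand). TSPAN11, which encodes a tetraspanin (chr12:30926498-30926797, plus strand), and SPATA18, which encodes a mitochondrial quality control protein (chr4:52051054-52051353, plus strand), lay under shared regions. PARP2, a poly(ADP-ribose) polymerase gene (chr14:20343385-20343684, plus strand), met an MLL4-only region only at its upstream edge; that region, at chr14:20342963-20343407, lies over the neighbouring RPPH1 gene, and its summit was 376 bp upstream of the PARP2 start, outside the window. The MDM2 window belongs to its second promoter (chr12:68808767-68809066, plus strand), and a p53-only region covered its upstream part. Capitals mark a paired p53 element in AEN and MDM2, and GGGCGG or its complement CCGCCC in the others.
AEN: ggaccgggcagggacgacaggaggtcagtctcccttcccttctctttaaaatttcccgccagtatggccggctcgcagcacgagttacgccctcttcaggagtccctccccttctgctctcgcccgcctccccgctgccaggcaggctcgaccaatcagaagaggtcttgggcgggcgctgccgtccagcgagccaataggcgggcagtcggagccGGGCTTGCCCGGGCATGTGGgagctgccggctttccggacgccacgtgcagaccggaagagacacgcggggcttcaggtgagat
TSPAN11: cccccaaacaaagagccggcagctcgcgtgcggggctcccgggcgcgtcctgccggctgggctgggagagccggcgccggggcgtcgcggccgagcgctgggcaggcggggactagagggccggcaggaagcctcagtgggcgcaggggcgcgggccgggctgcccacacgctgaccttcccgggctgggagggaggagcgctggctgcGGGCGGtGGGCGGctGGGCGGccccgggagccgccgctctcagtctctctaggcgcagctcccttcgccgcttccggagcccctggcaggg
SPATA18: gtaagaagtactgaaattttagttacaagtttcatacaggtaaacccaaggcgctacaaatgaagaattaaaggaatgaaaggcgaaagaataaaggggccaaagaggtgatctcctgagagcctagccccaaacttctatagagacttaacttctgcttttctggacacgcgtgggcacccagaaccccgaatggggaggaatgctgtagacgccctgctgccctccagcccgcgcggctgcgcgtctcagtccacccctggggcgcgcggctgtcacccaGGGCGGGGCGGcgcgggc
PARP2: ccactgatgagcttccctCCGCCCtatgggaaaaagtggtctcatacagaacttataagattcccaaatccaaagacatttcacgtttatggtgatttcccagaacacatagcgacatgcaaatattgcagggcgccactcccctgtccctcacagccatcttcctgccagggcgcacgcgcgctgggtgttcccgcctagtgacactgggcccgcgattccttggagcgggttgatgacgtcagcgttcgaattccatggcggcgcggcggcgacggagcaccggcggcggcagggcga
MDM2: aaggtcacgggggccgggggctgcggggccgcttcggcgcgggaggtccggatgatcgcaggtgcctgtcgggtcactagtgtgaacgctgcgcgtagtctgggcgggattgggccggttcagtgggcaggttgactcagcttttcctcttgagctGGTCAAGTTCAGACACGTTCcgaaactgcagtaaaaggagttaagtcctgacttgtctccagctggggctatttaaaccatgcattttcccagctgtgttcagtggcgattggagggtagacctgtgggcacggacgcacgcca

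The paired element in the AEN window, with 2 mismatches and no spacer, lay inside the p53-only region. The same kind of match in MDM2, the gene of the ubiquitin ligase that degrades p53, lay outside: it started 51 bp past the end of the MDM2 p53 region at chr12:68807896-68808872. The windows of TSPAN11, SPATA18 and PARP2 held no paired element under these limits, and they held GGGCGG on either strand 3, 2 and 1 times. TSPAN11 had a GC content of 78.3%, AEN 66%, SPATA18 55.7% and PARP2 58.3%.

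Across 15101 protein-coding genes with a window, taking the most upstream window of each gene, promoters with p53 were rich in G and C. The 2038 windows that met both p53 and MLL4 had a median GC content of 72.7% (quartiles 68.3% to 76.7%), and the 3972 that met p53 without MLL4 had 70.7% (65.3% to 75.3%). The 1068 windows with MLL4 but no p53 had a median of 63.7% (59.3% to 67.7%), and the 8023 with neither had 55.7% (47% to 62%). The quartile ranges of the p53 classes overlapped each other, and that of promoters with both factors lay above that of promoters with MLL4 alone. Among windows with H3K4me3 alone the order was the same: 72.7% with both, 71.7% with p53 without MLL4, 64% with MLL4 without p53 and 60.7% with neither.

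The letters GGGCGG, the core of the GC box, stood on one strand or the other in 89.4% of windows with both factors (95% Wilson interval 88.0% to 90.7%) and in 82.4% of those with p53 without MLL4 (81.2% to 83.6%). The share was 69.2% with MLL4 without p53, and 58.7% over all windows. A paired p53 element, meaning 2 matches to the 10-base p53 consensus with a spacer of up to 13 bases, the core C and G kept and at most 2 mismatches in all, followed the opposite order. It stood in 23 of 2038 windows with both factors (1.13%, interval 0.753% to 1.69%) and in 76 of 3972 with p53 without MLL4 (1.91%, 1.53% to 2.39%). It stood in 2.72% of windows with MLL4 without p53, 3.33% of those with neither and 2.62% of all windows. The letters CCAAT were also less frequent in windows with both factors (28.95%) than in windows with MLL4 without p53 (41.9%), against 36.1% of all windows. TGANTCA, with N as any base, is a looser form of the AP-1 element and stood in 2.94%, 5.52% and 5.64% of the same sets. A match is a run of letters in these 300 bases, and regions outside promoter windows were not searched. The sets differed in GC content, as given above, and the shares that base composition alone would give were not computed. The part of base composition in these orders was therefore not tested.

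Of the p53 regions, 39.7% (39.1% to 40.3%) overlapped MLL4, and 20.02% (19.7% to 20.4%) of MLL4 regions overlapped p53. Most shared p53 regions met a single MLL4 region (8929 of 10024), 1095 met 2 or more, and the covered length was 8.62 Mb of shared p53 regions and 9.21 Mb of p53-only regions. The MLL4-only regions covered 12.5 Mb. Taken separately, 33.2% of the peaks of p53 replicate 1 and 34.8% of those of replicate 2 met MLL4. Peaks that the other p53 replicate lacked met MLL4 less often, in 21.5% of 9478 peaks for replicate 1 and 19.3% of 6355 for replicate 2. The intervals reflect counting of regions alone, and adjacent regions can depend on each other. With 1 MLL4 library there was no test of the overlap between libraries. The lists come from bulk cells, so occupancy of the same allele and occupancy in different cells cannot be told apart.

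The count depended on where the lists were cut. With only peaks of −log10 q of at least 5 in every list, 2911 p53 regions were shared, 13.6% of the p53 regions left, while 34.7% of the MLL4 regions left met p53. Calling a region shared only if a p53 summit lay within 200 bp of an MLL4 summit left 5787 (22.9% of p53 regions, and 10.4% of MLL4 regions). At the edge of the rule, 223 shared regions overlapped MLL4 by at most 50 bp and had median p53 folds of 7.59 and 11.98 in replicates 1 and 2, and 169 p53-only regions lay within 50 bp of an MLL4 region with median folds of 7.59 and 9.86. H3K27ac was present at 89.2% of the regions just inside and at 92.9% of those just outside.

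In shared regions the p53 summit lay a median of 162 bp from the nearest MLL4 summit in replicate 1 (quartiles 66 to 324 bp), and the median was also 162 bp in replicate 2 (67 to 324 bp). The summit error of the MLL4 list could not be measured from 1 library. For p53 it was taken from the 2 replicates, whose summits lay a median of 59 bp apart in the same regions (23 to 181 bp). The distance to MLL4 exceeded the distance between p53 replicates, and the part of MLL4 summit error in it was not tested. In 35.4% of shared regions in replicate 1 and 35.2% in replicate 2 the MLL4 summit lay within 100 bp, against 63.5% for the other p53 replicate. In p53-only regions the replicate summits lay 44 bp apart (18 to 106 bp), and the nearest MLL4 summit was a median of 8216.5 bp away in replicate 1 and 8230.5 bp in replicate 2.

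**Figure D1:**
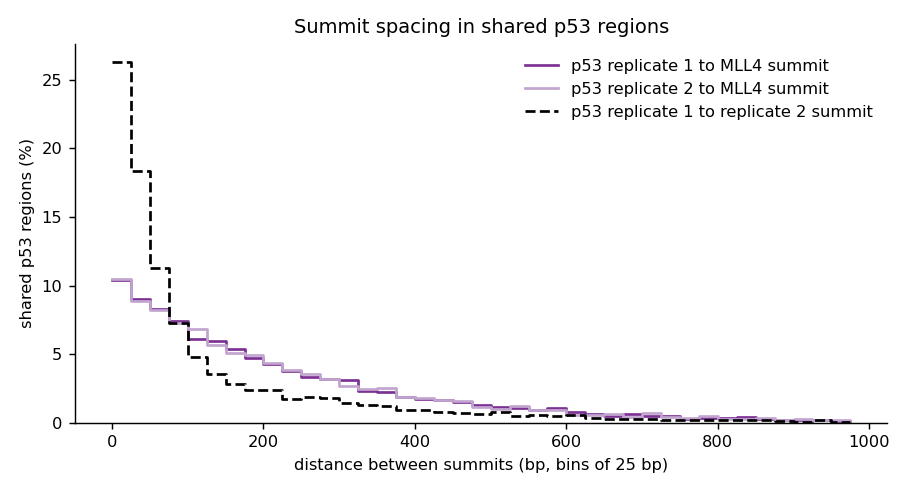
Distance in bp (x axis, bins of 25 bp) between summits in the 10024 shared p53 regions, as the percentage of regions (y axis); solid lines give each p53 replicate to the nearest MLL4 summit and the dashed line p53 replicate 1 to replicate 2. The solid lines coincide, with medians of 162 bp, and the dashed line is narrower, with a median of 59 bp.

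Spacing varied with region width and less with the mark at the region. In the narrowest tercile of shared regions the median spacing was 99 bp in replicate 1 and 99.5 bp in replicate 2, and in the widest tercile it was 282 bp in both, so width bounds the distance that can be seen. Regions with H3K4me3 had a median of 180 bp and regions without it 146 bp in replicate 1, and 181 and 145 bp in replicate 2. Where the p53 replicate summits lay within 50 bp of each other, the spacing to MLL4 was 134 bp in replicate 1 and 133 bp in replicate 2. MLL1, another methyltransferase of the same family, gave similar distances. In the 5052 shared regions that also held MLL1, the p53 summit lay 178 bp from MLL4 and 198.5 bp from MLL1 in replicate 1, and 180 and 221 bp in replicate 2.

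Shared p53 regions had slightly higher p53 fold enrichment, the authors' value per peak, than p53-only regions. The median fold was 9.06 in shared and 8.31 in p53-only regions in replicate 1, and 16.8 and 13.4 in replicate 2. The quartile ranges overlapped in both replicates: 7.17 to 11.3 in shared and 6.76 to 10.4 in p53-only regions in replicate 1, and 9.86 to 23.3 and 8.46 to 20.4 in replicate 2. As a percentile of the p53 list, averaged over replicates, the median rank was 56.6 in shared and 45.3 in p53-only regions, a difference of 11.3. That difference was 19.1 without p53 replicate 2, and 2.51 when shared meant summits within 200 bp.

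On the MLL4 side the separation was wider with the full lists. Shared MLL4 regions had a median fold of 5.00 (quartiles 4.17 to 5.84) and MLL4-only regions 4.15 (3.33 to 4.85), which are median ranks of 76.5 and 44.1 in the MLL4 list. Fold took few values in this list, with 54.5% of MLL4 regions at its 3 commonest values, so ranks are coarse. The share of MLL4 regions with p53 was 8.23% at a fold below 4, 20.3% from 4 to 5, 32.9% from 5 to 6, 38.0% from 6 to 10, 44.8% from 10 to 20 and 58.5% from 20 up, where there were 200 regions. The rank difference of 32.4 between shared and MLL4-only regions was 9.02 with −log10 q of at least 5, and 13.4 with all 3 lists cut to the same length. Under the same cuts the p53 rank difference between shared and p53-only regions was 8.43 and 11.05. The MLL4 separation was thus only slightly wider than that of p53 once the lists were cut alike.

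The share of p53 regions that met MLL4 was higher at high p53 fold, at 32.1% (30.3% to 33.9%) in the lowest decile by rank, 30.1% in the next and 57.9% (56.0% to 59.8%) in the top one. Width moved with it: fold rank and width correlated across p53 regions (Spearman rho 0.59, 25236 regions of the same libraries), and shared regions had a median width of 708 bp and p53-only regions of 523 bp. Within a width quintile the fold hardly separated the regions. In the fourth width quintile 46.6% of the highest fold tercile and 46.6% of the lowest fold tercile met MLL4, and in the second the shares were 29.9% (26.9% to 33.0%) and 32.2% (30.3% to 34.2%). In the widest quintile they were 63.6% (61.9% to 65.1%) and 60% (54.6% to 65.2%). Within the lowest fold tercile the share went up with width, at 23.7%, 32.2%, 37.3%, 46.6% and 60% over the 5 quintiles. A wider region has more bases that can meet a peak; the part of this in the result was not tested.

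**Figure D2:**
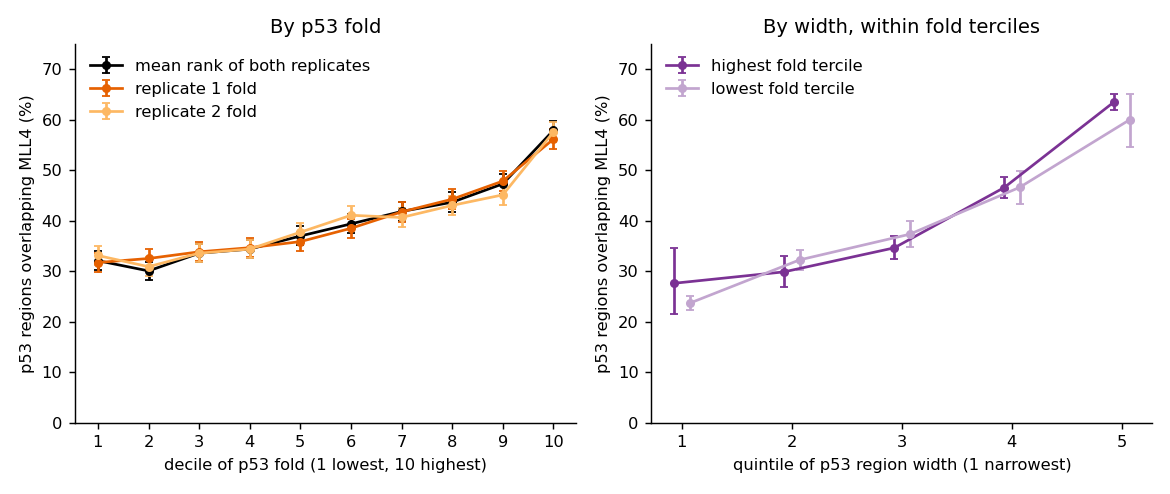
Percentage of p53 regions that overlapped MLL4 (y axis, with 95% Wilson intervals) by decile of p53 fold (left, for the mean rank and for each replicate) and by quintile of p53 region width (right, for the highest and lowest tercile of fold rank). The share is 32.1% in the lowest and 57.9% in the highest decile by fold, and the fold terciles lie on nearly the same line once width is held.

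Inside shared regions the folds of the factors did not track each other. Across the 10024 shared regions Spearman's rho between p53 and MLL4 fold was 0.07 for replicate 1 and 0.03 for replicate 2, whereas the p53 replicates had a rho of 0.65 in the same regions. These are correlations across regions that share libraries and an input, given as a description. An MLL4 region of the top fold decile stood at 26.4% (24.2% to 28.7%) of shared regions in the highest p53 decile, and at 26.0% (23.1% to 29.2%) of those in the lowest. Both shares lay above that of all shared regions, 20.8% (20.03% to 21.6%).

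The strongest regions of each class were read by the genes nearest to them. Of the 10 shared regions with the highest p53 fold, 8 lay on chromosome 21 at ribosomal RNA genes or an 18S pseudogene, headed by RNA45SN1 at chr21:8438426-8443693 with p53 folds of 173 and 442 in replicates 1 and 2 and an MLL4 fold of 77.0. Such sequences are repeated in the genome, and reads from their copies cannot be assigned to one place. The strongest p53-only regions lay near RHOU, a GTPase gene, with folds of 61.6 and 125, inside RPS19, a ribosomal protein gene, with 48.3 and 112, and inside EPPK1, a plakin gene, with 27.9 and 85.3. The 10 strongest also held regions nearest to OR11H2, OR11H1 and POTEG, 44030, 24537 and 29022 bp away, without H3K27ac. Whether p53-only regions lay in repeated sequence was not tested. The 10 strongest MLL4-only regions included some at RNA polymerase III genes. These were RN7SL1, the RNA of the signal recognition particle, with a fold of 530, RN7SK, which regulates transcription elongation, with 310, RN7SL2 with 288, and RPPH1, the RNase P RNA, with 139. Another overlapped the pseudogene RN7SL4P, and those nearest to CA11, MCF2L, CHRNA4, ABR and MOB2 overlapped no RNA gene. In the top 1% of MLL4 fold, 6 of 277 MLL4-only regions overlapped a gene for rRNA, 7SL, 7SK or RNase P RNA. In all, 18 shared, 2 p53-only and 8 MLL4-only regions overlapped a gene for rRNA, 7SL, 7SK or RNase P RNA. Leaving out all regions within 1 kb of such a gene left 9999 shared regions, 39.7% of p53 regions.

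The classes differed in the histone marks they carried. H3K27ac was present at 88.9% (88.3% to 89.5%) of shared regions, 76.2% (75.6% to 76.9%) of p53-only regions and 37.6% (37.2% to 38.1%) of MLL4-only regions. H3K4me3 was present at 49.1% (48.1% to 50.03%) of shared, 27.3% (26.6% to 28.0%) of p53-only and 8.22% (7.96% to 8.47%) of MLL4-only regions. H3K4me1, the mark of MLL4 itself, was present at 65.2% (64.2% to 66.1%), 47.4% (46.6% to 48.2%) and 31.6% (31.1% to 32.0%) of the same classes. The order shared, p53 only, MLL4 only held for each mark, and no intervals overlapped. With summits within 200 bp as the rule, the differences between shared and p53-only regions were 7.97 points for H3K27ac in place of 12.7, 12.9 for H3K4me3 in place of 21.8 and 10.5 for H3K4me1 in place of 17.8. No mark at all was found at 9.26% of shared, 21.1% of p53-only and 56.3% of MLL4-only regions. MLL4-only regions were narrower, with a median width of 216 bp, against 523 bp for p53-only and 708 bp for shared regions. Of MLL4 peaks, 15.6% reached a −log10 q of 5, against 75.6% and 86.5% in p53 replicates 1 and 2. The part of width and peak strength in the shares without a mark was not tested.

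Each replicate list of the marks gave the same order. H3K27ac stood at 88.9% of shared, 76.4% of p53-only and 35.9% of MLL4-only regions by the replicate 1 list, and at 92.9%, 85.6% and 41.5% by the replicate 2 list, which is the longer one. The difference between shared and p53-only regions was 12.7 percentage points (11.8 to 13.6) with both lists required and 7.36 without H3K27ac replicate 1. H3K4me3 stood at 50.1%, 27.7% and 8.70% of shared, p53-only and MLL4-only regions by replicate 1, and at 49.3%, 27.9% and 7.96% by replicate 2. Reading the marks only at the summit base gave differences of 12.7 points for H3K27ac and 21.0 for H3K4me3 between shared and p53-only regions, and 38.4 and 18.4 between p53-only and MLL4-only regions.

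Where H3K27ac was present, it was stronger at shared regions. Its median fold was 18.5 at shared, 7.79 at p53-only and 8.07 at MLL4-only regions in replicate 1, and 17.0, 8.55 and 8.80 in replicate 2, with list medians of 4.78 and 4.62. The quartiles at shared regions ran from 6.90 to 46.6 in replicate 1 and those at p53-only regions from 5.10 to 24.5, so the classes overlapped. H3K4me3 folds differed less, with medians of 123 at shared, 109 at p53-only and 101.3 at MLL4-only regions in replicate 1, and 140, 124 and 130 in replicate 2.

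**Figure D3:**
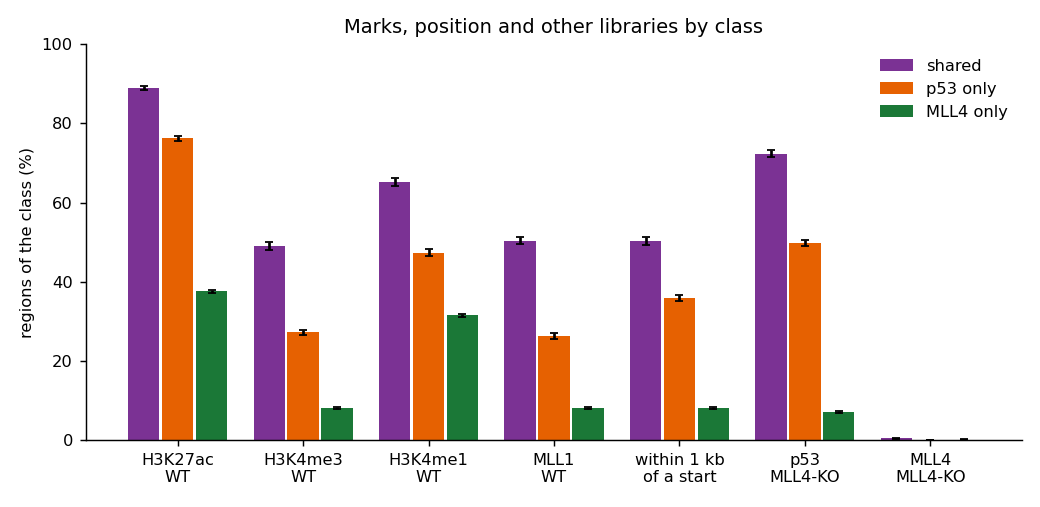
Percentage of shared, p53-only and MLL4-only regions (y axis, bars with 95% Wilson intervals) that overlap each WT mark, WT MLL1, a 1 kb window around a gene start, p53 regions of both KO libraries or a KO MLL4 peak. H3K27ac, for example, stands at 88.9% of shared, 76.2% of p53-only and 37.6% of MLL4-only regions, and KO MLL4 peaks lie under 1% in each class.

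The most common combination at shared regions was H3K4me3, H3K27ac and H3K4me1 together, at 39.6% of them, against 20.6% of p53-only and 5.89% of MLL4-only regions. H3K27ac with H3K4me1 and no H3K4me3, the usual pattern of an active enhancer, was similarly frequent in both p53 classes and less frequent at MLL4-only regions, at 23.8% (22.99% to 24.7%) of shared, 24.2% (23.5% to 24.9%) of p53-only and 19.6% (19.2% to 19.98%) of MLL4-only regions. Read the other way, 55.9% of p53 regions with all 3 marks were shared, against 39.3% with the enhancer pattern, 30.02% with H3K27ac alone and 22.4% with no mark. Of MLL4 regions, 61.0% with all 3 marks were shared, against 22.5% with the enhancer pattern and 4.01% with no mark.

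The differences between p53 classes held within strata of width and fold. In the narrowest width quintile H3K4me3 stood at 37.2% of shared and 21.9% of p53-only regions, and in the widest at 56.1% and 35.5%. In the lowest p53 fold quintile it stood at 40.9% of shared and 25.04% of p53-only regions, and in the highest at 49.9% and 24.1%. Between shared and MLL4-only regions the difference in H3K27ac narrowed with MLL4 fold, from 85.7% of shared and 26.0% of MLL4-only regions below a fold of 4 to 71.8% of shared and 73.5% of MLL4-only regions at 20 and above. That last bin held 117 shared and 83 MLL4-only regions. With −log10 q of at least 5, the H3K27ac difference between p53-only and MLL4-only regions was 20.1 points in place of 38.6, and that of H3K4me1 was 6.02 in place of 15.8.

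H3K27ac regions give the same overlap from the side of the chromatin. Of 106944 H3K27ac regions called in both WT lists, 18% held an MLL4 region and 16.2% a p53 region. MLL4 was present at 53.4% (52.6% to 54.1%) of the 17368 with p53 and at 11.1% (10.9% to 11.3%) of the 89576 without. Stronger and wider H3K27ac regions more often held either factor, so the comparison was repeated by quintile. In the lowest fold quintile MLL4 was present at 28.1% of regions with p53 and 4.02% of those without, and in the highest at 66.9% and 27.6%. By width the shares were 22.02% with p53 and 3.29% without in the narrowest quintile, and 71.8% and 31.0% in the widest. The difference was present both with H3K4me3 (65.2% with p53, 26.5% without) and lacking it (42.6% with p53, 9.62% without). At −log10 q of at least 5 the difference of 42.3 points was 17.9.

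**Figure D4:**
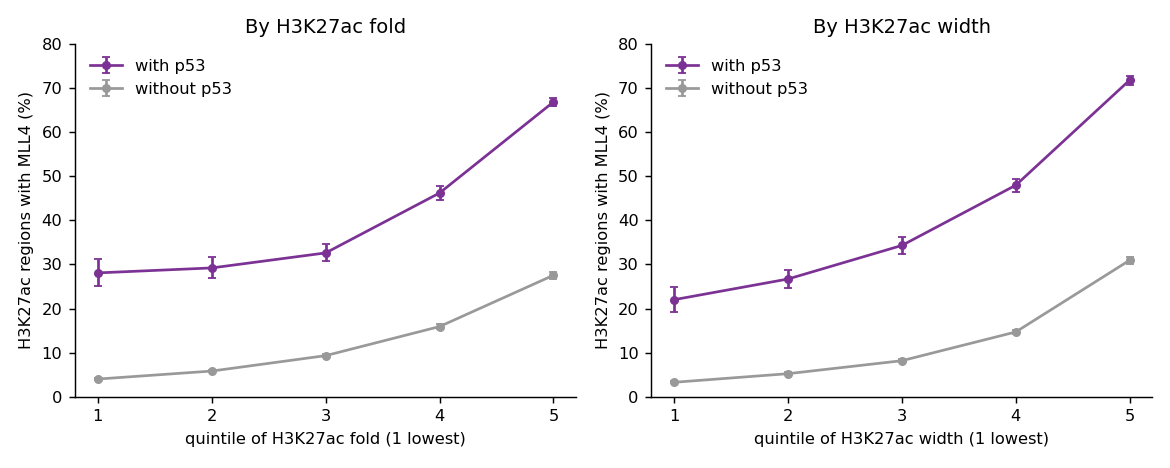
Percentage of H3K27ac regions that held an MLL4 region (y axis, 95% Wilson intervals) by quintile of H3K27ac fold (left) and width (right), for regions with and without p53. Regions with p53 lie above those without in all quintiles, at 66.9% and 27.6% in the highest fold quintile.

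MLL1 followed the same order of classes as each of the histone marks. A WT MLL1 region overlapped 50.4% (49.4% to 51.4%) of shared, 26.3% (25.6% to 27.0005%) of p53-only and 8.07% (7.83% to 8.33%) of MLL4-only regions. In KO cells, p53 regions of both libraries overlapped 72.3% (71.4% to 73.2%) of shared regions and 49.8% (49.0% to 50.6%) of p53-only regions. Wider regions were more often found again: 46.9% of shared and 29.9% of p53-only regions in the narrowest quintile, and 84.8% of shared and 70.3% of p53-only regions in the widest. The KO p53 lists differed in length, at 24766 and 61530 peaks, and KO replicate 2 alone overlapped 92.4% of shared and 82.3% of p53-only regions. With summits within 200 bp as the rule, the differences between shared and p53-only regions were 14.8 points for MLL1 in place of 24.1, and 11.8 for p53 of KO cells in place of 22.5.

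Shared regions lay closest to genes. Within 1 kb of a transcription start lay 50.3% (49.3% to 51.3%) of shared, 35.9% (35.1% to 36.6%) of p53-only and 8.10% (7.85% to 8.36%) of MLL4-only regions. The median distance to the nearest start was 950.5 bp for shared, 6032 bp for p53-only and 25324 bp for MLL4-only regions. MLL4-only regions lay mostly inside genes (51.9%) or outside them (40.0%), and for p53-only regions these shares were 32.9% and 31.3%. The promoter difference of 14.4 points between shared and p53-only regions was 4.91 with summits within 200 bp, and 21.8 when a promoter was read as an H3K4me3 region.

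Known p53 target genes were then examined in 6 lists with 97 genes on chromosomes 1 to 22. A gene was counted when a region lay inside it or within 10 kb. The region described for a gene below is its strongest by mean p53 fold, unless another is given. Regions of the other class can also lie near the same gene. A shared region was near 43 of the 97 genes (44.3%), against 41.3% of all 19126 protein-coding genes. A p53-only region was near 50 (51.5%), against 49.9% of all genes, and an MLL4-only region near 76 (78.4%), against 72% of all genes. Any p53 region was near 74 (76.3%, interval 66.9% to 83.6%), against 68.5% of all genes, which lies inside the interval. The fold rank of the strongest p53 region near a gene had a median of 59.6 over the 74 target genes and 66.8 over all 13104 genes with one, and 8 of the 74 target genes against 1739 of the 13104 were in the top decile. By these counts, p53 target genes were near the level of all genes in each class.

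**Figure D5:**
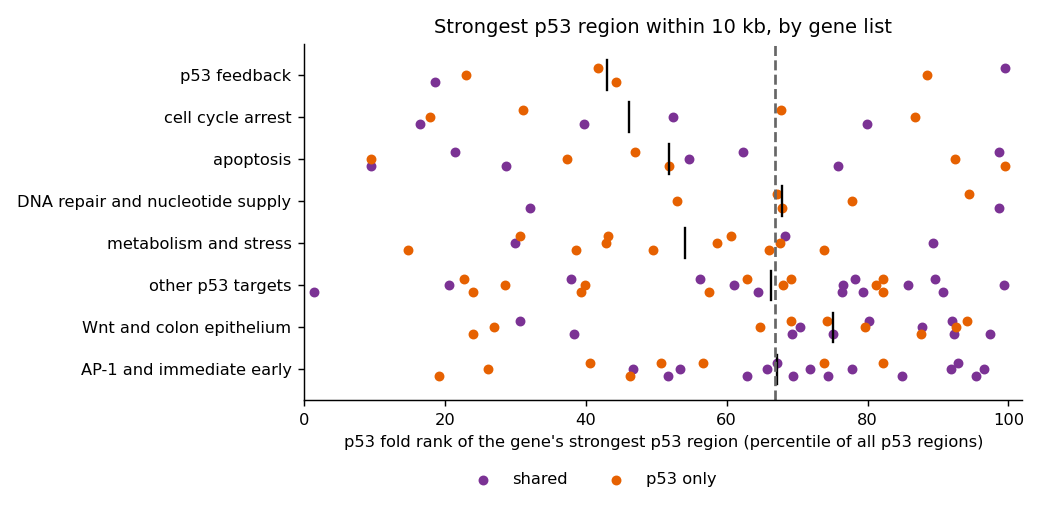
Fold rank of the strongest p53 region within 10 kb of each gene (x axis, percentile of the 25236 p53 regions), with genes in rows by list and points coloured by whether that region was shared or p53 only; black bars are list medians and the dashed line is the median over all genes. The points of each list spread over most of the axis, with medians of 43.0 for feedback and 46.1 for arrest genes left of the line at 66.8.

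Among the genes that feed back on p53, 6 of 9 had a p53 region, against 68.5% of all genes. TP53INP1, a p53-induced cofactor of autophagy and cell death, had the strongest, a shared region at its start with p53 folds of 21.1 and 41.6 in replicates 1 and 2 and an MLL4 fold of 5.84. PPM1D, the phosphatase that switches p53 signalling off, had a p53-only region with folds of 13.7 and 24.0, 13250 bp from a start. A weaker shared region also lay within 10 kb of PPM1D. MDM2 had a p53-only region over its first promoter with folds of 8.96 and 10.4, and its nearest MLL4 summit was 33954 bp away by replicate 1. COP1, another ubiquitin ligase for p53, also had a p53-only region, with folds of 7.55 and 15.5. ZMAT3, an RNA-binding regulator of splicing, had a shared region with folds of 5.85 and 8.78 and summits 113 and 128 bp from MLL4.

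Of 10 arrest genes, 8 had a p53 region and 6 a shared one (60%, interval 31.3% to 83.2%), against 68.5% and 41.3% of all genes. CDKN1A, which encodes the kinase inhibitor p21, had 2 shared regions. The one at its start (chr6:36678509-36679207) had p53 folds of 4.45 and 10.3 and an MLL4 fold of 5.00, with summits 29 and 96 bp apart in replicates 1 and 2, and ranked at percentile 16.5 of p53 regions. The second, 1519 bp from a start, had p53 folds of 7.72 and 4.85 and ranked at 21.9. Both carried all 3 marks, MLL1 and p53 in both KO libraries. PLK3, a stress kinase, had p53 folds of 11.01 and 31.96 in a p53-only region 12630 bp from a start, and 2 weaker shared regions within 10 kb. TOB1, an antiproliferative factor, had 10.4 and 26.97 in a shared region. GADD45A, a DNA damage-inducible gene, had a shared region with folds of 6.57 and 16.9. BTG2 and SFN, both arrest genes, had no p53 region within 10 kb.

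Of 17 apoptosis genes, 13 had a p53 region and 7 a shared one, against 68.5% and 41.3% of all genes. PHLDA3, an inhibitor of AKT, had a p53-only region at its start with folds of 21.9 and 40.2, percentile 99.5, and its nearest MLL4 summit lay 11560 and 11487 bp away in replicates 1 and 2. BBC3, which encodes PUMA, had a shared region with p53 folds of 20.02 and 34.1 and an MLL4 fold of 6.77, 1150 bp from a start, with summits 657 and 594 bp apart. AEN, printed above, had folds of 16.6 and 25.9 in its p53-only region. TNFRSF10B, the death receptor DR5, had a shared region with folds of 7.55 and 26.8, and PIDD1, a death-domain protein gene, had one with 10.6 and 22.5 9386 bp from a start, in which the summits lay 4 and 47 bp from MLL4. For BAX, the pore-forming effector, the strongest nearby region lay 10448 bp from its nearest start, with an MLL4 fold of 20.2 and p53 folds of 9.21 and 14.6. This region and that of PIDD1 carried H3K4me3 at these distances, and whether they belong to the start of another gene was not tested. TP53I3, TP53AIP1, TRIAP1 and TNFRSF10A had no p53 region within 10 kb.

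Of 10 DNA repair and nucleotide supply genes, 7 had a p53 region and 4 a shared one, against 68.5% and 41.3% of all genes. FDXR, a mitochondrial reductase gene, had a shared region with p53 folds of 16.3 and 41.1, 15941 bp from a start, with MLL4 summits 96 and 22 bp away. POLH, a translesion polymerase, had a p53-only region with folds of 9.06 and 38.1, 5090 bp from a start and without H3K27ac. A weaker shared region also lay within 10 kb of POLH. PCNA, the sliding clamp, had a p53-only region with folds of 9.82 and 19.7. DDB2, RRM2B and RPS27L had none. Of 16 metabolism and stress genes, 14 had a p53 region and 6 a shared one, among them SPATA18 with folds of 12.8 and 26.8 and SESN2, a brake on mTORC1, with 9.82 and 20.4. Of the 35 remaining targets, 26 had a p53 region and 17 a shared one. PLXNB2, a plexin receptor gene, had p53 folds of 26.4 and 38.1 and an MLL4 fold of 17.5 with summits 10 and 5 bp apart, 25155 bp from a start, and NOTCH1 had 10.6 and 35.2 with an MLL4 fold of 5.84. Altogether 23 of the 97 targets had no p53 region within 10 kb, and 19 of these had an MLL4-only region; a p53 region was near 68.5% and an MLL4-only region near 72% of all genes.

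Other gene lists were read in the same way. All 23 AP-1 and immediate early genes had a p53 region and 17 (73.9%, interval 53.5% to 87.5%) a shared one, against 41.3% of all genes. DUSP5, an ERK phosphatase, had p53 folds of 13.5 and 39.2 in a shared region, MAFF had 14.3 and 35.2 at 11276 bp from a start, EGR2 13.6 and 28.9, and JUN, the AP-1 subunit, 13.6 and 27.1. Of 25 Wnt and colon epithelial genes, 19 had a p53 region and 14 (56%, 37.1% to 73.3%) a shared one, against 68.5% and 41.3% of all genes. AXIN2, a negative regulator of Wnt signalling, had folds of 17.1 and 31.7 with an MLL4 fold of 9.17, and CDX2, an intestinal transcription factor, had 14.3 and 26.8 with 6.67, 8635 bp from a start. Among genes of the H3K4 methyltransferase complexes, 7 of 15 had a shared region, against 41.3% of all genes. KMT2A, which encodes MLL1, had p53 folds of 15.2 and 28.2 and an MLL4 fold of 18.3 at its start. KMT2D, which encodes MLL4, had a shared region at its start with p53 folds of 9.06 and 17.6, an MLL4 fold of 5.84 and summits 92 and 125 bp apart. Gene length and activity were not matched between lists.

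Counting each region once for its nearest gene up to 100 kb, 34% of genes had a shared, 43.8% a p53-only and 68.1% an MLL4-only region. The genes with most shared regions were GSE1 with 25, BAHCC1 and ZFPM1 with 19 each and CBFA2T3 with 16. BAHCC1 is a chromatin reader gene, ZFPM1 encodes the GATA cofactor FOG1 and CBFA2T3 a corepressor. GSE1, which is 507 kb long, also had 22 p53-only and 70 MLL4-only regions. METRNL, a secreted factor gene 15.5 kb long, had 13 shared, 4 p53-only and 19 MLL4-only regions, inside it or up to 100 kb away. CDH4, a cadherin gene, had 41 MLL4-only, 2 p53-only and no shared regions, and RHOU had 6 shared, 13 p53-only and 2 MLL4-only regions.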

How the data were processed

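ChIP-seq peak lists of WT and MLL4-KO HCT116 cells were used; 12 of 18 lists were read, and 6 KO lists (H3K4me1, H3K4me3, H3K27ac and MLL1) and the inputs were not used here. MACS2 2.1.1 and the build hg38 are named, per the submitters' processing notes. By the names of the deposited peaks, every list comes from a single library with the input of the same genotype as control. Aligner, filters on reads and sequencing depth: not given in the sources used here. In the authors' lists the fold enrichment is a ratio to the local background, and significance is a −log10 p-value and a −log10 q-value per peak. The summit is the offset that the authors' narrow lists give. These values served only to describe, rank or filter peaks within a list.

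Peaks touching by 1 bp were merged, and p53, H3K27ac and H3K4me3 regions needed a peak in both WT lists. A region's fold and summit are those of its strongest peak in each library, ranks are percentiles within a list with ties averaged, and the rank of a p53 region is the mean over replicates. Shares have 95% Wilson intervals and differences Newcombe intervals. No p-value was computed, since regions are not replicates and MLL4 had 1 library. Gene positions are from RefSeq GRCh38.p14; 15101 of 19126 protein-coding genes had a strand, and both ends were used as starts for the other 4025. Named genes are the strongest regions of each class, up to 6 members per list by p53 fold, the genes with most regions, and CDKN1A, MDM2 and KMT2D, with some genes not reported here; BAX and the genes without a p53 region were named after their values were seen. Members and lists were chosen with earlier results of these data known. The overlap and interval code was tested on simulated data. Python 3.11.15, numpy 2.4.6, pandas 2.3.3 and scipy 1.17.1 were used.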

Additional observations from a re-analysis of the deposited data

How the results depend on the processing

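Over 18 results and 149 recomputed values, 78 stayed close to the main value, 71 moved and 0 reversed. All 113 recomputed differences kept their direction. Close meant within 1.5 times the main value for counts. Otherwise the limit was the interval's margin or, if larger, the standard deviation between values without p53 replicate 1 and without replicate 2. That deviation does not measure the spread of replicates of the marks or of MLL4. The depth of the libraries is unknown, which limits what an absent peak means. No paired analysis was possible because no test was made and MLL4 had 1 library. At −log10 q of at least 5, 2911 p53 regions were shared (13.6% of p53 and 34.7% of MLL4 regions), spacing was 181.5 bp, rank differences were 8.43 (p53) and 9.02 (MLL4), shared minus p53-only differences were 15.5 points for H3K27ac, 20.3 for H3K4me3, 10.2 for promoters, 21.2 for MLL1 and 24.3 for KO p53, p53-only minus MLL4-only differences were 20.1, 16.3 and 6.02 for H3K27ac, H3K4me3 and H3K4me1, the H3K27ac regions differed by 17.9, and 15 p53 targets were nearest to a shared region in place of 39 in the main setting. With equal list lengths the shares were 33.6% and 27.8%, the MLL4 rank difference 13.4, the p53-only minus MLL4-only differences 29.1, 16.9, 9.13 and, for promoters, 26.2, and that of H3K27ac regions 37.9. With an overlap of at least 50% the values were 36.1%, 18.01%, 146 bp, 13.2 and 32.1 for the shares, the spacing and the p53 and MLL4 ranks. With summits within 200 bp, 5787 regions were shared (22.9% and 10.4%), spacing was 85 bp, as that rule bounds it, ranks differed by 2.51 and 21.7, and shared minus p53-only differences were 7.97 for H3K27ac, 12.9 for H3K4me3, 10.5 for H3K4me1, 4.91 for promoters, 14.8 for MLL1 and 11.8 for KO p53. Promoters read as H3K4me3 differed by 21.8 and 19.0. Reading overlaps at the summit base, a setting chosen after seeing the data, gave 13.4 and 11.96 for H3K4me1, 26.4 for promoters of p53-only minus MLL4-only regions and 19.5 for MLL1. Leaving out 1 library in turn gave 33.2% to 34.8% and 21.5% to 22.6% shared, 139 to 147 bp, rank differences of 16.7 to 19.1 (p53) and 33.2 to 33.5 (MLL4), shared minus p53-only differences of 7.36 to 17.4 for H3K27ac, 14.8 to 16.8 for promoters and 25.5 to 26.4 for KO p53, p53-only minus MLL4-only differences of 32.3 to 44.1, 15.4 to 19.9, 12.6 to 16.4 and 22.1 to 23.3 for H3K27ac, H3K4me3, H3K4me1 and promoters, and 41.4 to 42.1 for H3K27ac regions. The cause of the other shifts was not tested.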

Other observations

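Chromosomes differed in how many p53 regions met MLL4. The share was 52.97% (95% Wilson interval 50.5% to 55.4%) on chromosome 17, 48.8% on chromosome 21, 47.7% on chromosome 8 and 47.0% on chromosome 16, against 32.9% (30.2% to 35.7%) on chromosome 6 and 33.5% on chromosome 18. For MLL4 regions the highest share with p53 was 29.5%, on chromosome 19, and the lowest 15.5%, on chromosome 6. Regions at the ribosomal RNA genes were kept in the shares of chromosome 21, and their part in them was not tested.

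The housekeeping gene ACTB, which encodes beta-actin and was chosen after its values were seen, had a shared region with p53 folds of 3.25 and 13.5 in replicates 1 and 2 and an MLL4 fold of 33.3. Of 14 housekeeping genes, 12 had a p53 region and 7 a shared one, and their strongest p53 regions had a median rank of 38.8, against 66.8 over all genes with one. Of 14 blood lineage genes, 6 had a p53 region and 4 a shared one, and 10 had an MLL4-only region. Over all genes the shares were 68.5% with a p53, 41.3% with a shared and 72% with an MLL4-only region.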
